A study of Mus musculus with 16 samples.

Results

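The results concern 10 genes used as markers of the cells that lie around bone vessels, followed through RNA-seq libraries of sorted bone endothelial cells (ECs). They are Pdgfrb, Cspg4, Rgs5, Kcnj8 and Des, which mark pericytes, Acta2, Tagln and Myh11, which mark smooth muscle and contractile mural cells, and Lepr and Pdgfra, which mark marrow stromal cells. They were taken by symbol from 2 deposited expression tables, which list 38926 and 38922 gene names, and by Ensembl identifier from another set of lists with 21603 genes. All 10 were found in each.

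Pericytes and smooth muscle cells, together called mural cells, wrap the endothelial tube and are held there by PDGF-B, which ECs release and which the receptor Pdgfrb on mural cells binds. Around the sinusoids of bone marrow, reticular stromal cells that carry the leptin receptor Lepr supply Cxcl12 and Kitl to blood stem cells. Kcnj8 encodes Kir6.1, the pore of an ATP-sensitive potassium channel that is completed by the sulfonylurea receptor encoded by Abcc9.

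The data are 16 libraries in 3 comparisons. All mice were C57BL/6 and, by the study's methods, 3 weeks old and grouped irrespective of sex. The methods also say that wild-type bone was studied in males, and whether that covers the mpEC and bmEC libraries is not stated. For the first comparison 3 libraries came from metaphyseal ECs (mpECs) and 3 from ECs of the diaphyseal marrow cavity (bmECs), labelled as wildtype and, by the methods, sorted by the GFP and mTom of the Cdh5-mTnG endothelial reporter. For the second, 3 control libraries came from Yap1flx/flx; Wwtr1flx/flx mice without Cdh5CreERT2 and 3 libraries labelled ECKO from mice with it, at postnatal day 21. For the third, 2 control libraries came from Lats2flx/flx mice without Cdh5CreERT2 and 2 libraries labelled cKO from mice with it. Cdh5CreERT2 is a tamoxifen-inducible Cre driven by an endothelial promoter, so recombination is directed to ECs. The floxed alleles are carried by controls and mutants alike. By the methods, pups received daily tamoxifen injections in their early postnatal days. The methods also describe sorting bone ECs with antibodies against Pecam1 and endomucin. Which sort served the Yap1/Taz and Lats2 libraries is not stated there. Whether a library holds 1 animal or several is not given in the sources used here, so the p-values measure only the spread between these libraries.

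The targeted genes were looked at first. Wwtr1, which encodes Taz, stood at 10.01, 9.88 and 10.3 FPKM in the 3 controls and at 15.3, 19.6 and 19.5 FPKM in the libraries labelled ECKO. FPKM, the unit of the deposited values, counts fragments relative to the length of the gene and the size of the library. The difference of 0.78 on the log2 scale (adjusted p = 0.0272, limma) went against the label, and Yap1 differed by -0.04 (adjusted p = 0.934). Lats2 itself was at 23.4 and 24.0 FPKM in controls and at 19.2 FPKM in both libraries labelled cKO (log2 difference -0.29, adjusted p = 0.125). These values cover whole genes, so transcripts that lack only floxed exons would still be counted. Whether this bears on the values above was not tested. The study itself reports lower Yap1 and Wwtr1 by quantitative PCR, and lower Lats2 transcripts, in freshly isolated mutant bone ECs. The groups are called by their labels throughout.

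The endothelial marker Pecam1 was expressed in every group. Pecam1 was at 107 to 178 FPKM in the mpEC and bmEC libraries, at 57.1 to 77.0 in the Yap1/Taz libraries and at 188 to 369 in the Lats2 libraries. Blood-cell transcripts were also abundant, and Hbb-bs, a hemoglobin chain, had the highest mean of the 8 blood-cell markers in each group. Its means were 14379 FPKM in mpECs and 19869 FPKM in bmECs. In the Yap1/Taz libraries they were 2575 FPKM in controls and 2740 FPKM in those labelled ECKO. The Lats2 means were 1089.5 FPKM in controls and 295.5 FPKM in the libraries labelled cKO. The depth, estimated by turning FPKM back into reads with gene lengths, was 11163416 to 14807206 reads on genes in the mpEC and bmEC libraries, 4889945 to 7162965 in the Yap1/Taz libraries and 4741088 to 7084239 in the Lats2 libraries. In a gene of 2000 bases, 1 read is then worth 0.0405 to 0.0608, 0.0726 to 0.107 and 0.0841 to 0.133 FPKM. In these bulk libraries, fewer cells of a type and less RNA per cell cannot be told apart.

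The 10 genes did not share one level in these ECs. Kcnj8 had the highest FPKM of the 10 in all 16 libraries, from 44.6 to 465 FPKM. The other pericyte genes were far lower in the mpEC and bmEC libraries: Pdgfrb was at 0.0222 to 0.174 FPKM, which is 1 to 10 reads, and Cspg4, which encodes the NG2 proteoglycan, was at 0 to 0.0623 FPKM. Rgs5, a regulator of G-protein signaling abundant in pericytes, was at 1.10 to 22.7 FPKM in the same libraries. In these 6 libraries the defining receptor Pdgfrb and Cspg4 were thus close to 0, and Kcnj8 and Rgs5 were not. The cells from which the transcripts came were not tested.

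**Figure D1:**
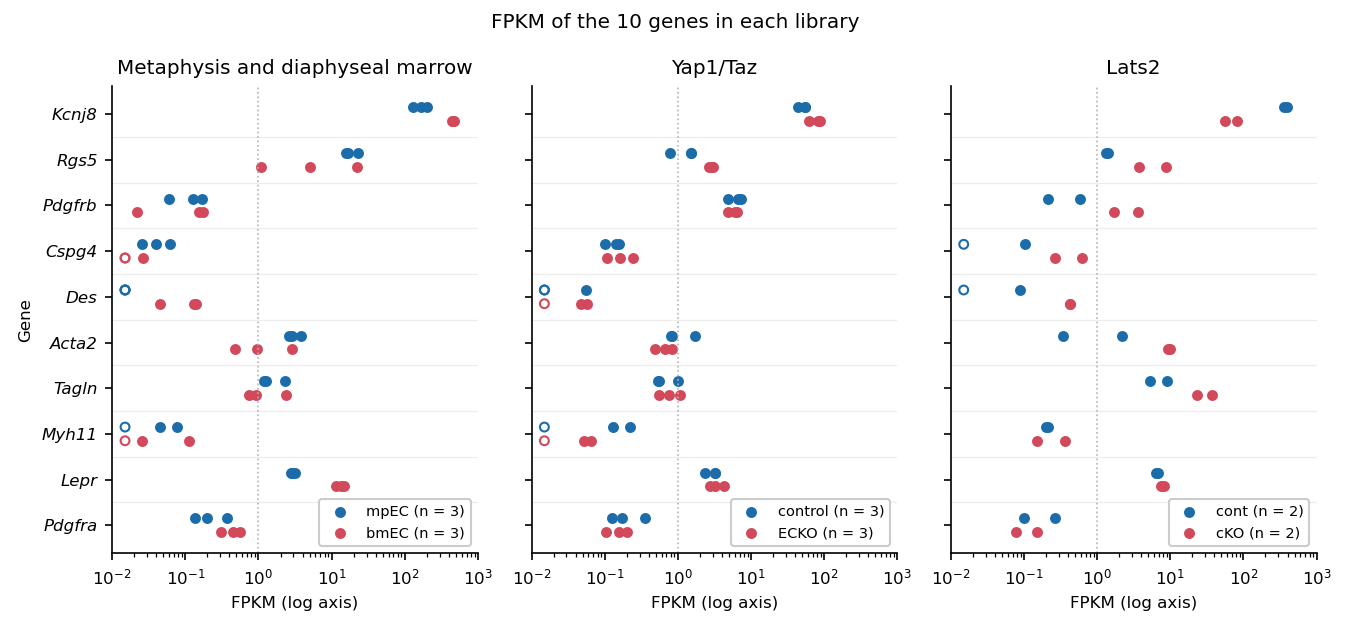
Each point is 1 library and gives the FPKM of the gene on a log axis, in the mpEC and bmEC, the Yap1/Taz and the Lats2 libraries. Open points mark libraries in which the gene is listed at 0 and the dotted line marks 1 FPKM. Kcnj8 lies at the right edge in all panels, and Pdgfrb lies under 1 FPKM in the first panel and between 4.92 and 7.32 FPKM in the second.

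Of the contractile genes, Acta2 encodes smooth muscle actin and was at 0.339 to 9.93 FPKM over all libraries. Tagln encodes the actin-binding protein transgelin and was at 0.531 to 37.2 FPKM. Myh11, the smooth muscle myosin heavy chain and the most specific marker of mature smooth muscle, did not pass 0.360 FPKM in any library. Des, the intermediate filament of muscle and of part of the pericytes, did not pass 0.428 FPKM. Of the stromal genes, Lepr was at 2.33 to 14.8 FPKM and Pdgfra, a receptor of fibroblasts and marrow stroma, at 0.0787 to 0.559 FPKM. These ranges run over tables that were normalized separately, so only differences within a table were tested.

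By the GENCODE annotation of GRCm38, Kcnj8 lies on the minus strand of chromosome 6 from 142564837 to 142571614, and Abcc9 is its neighbour from 142587862 to 142702315. Lepr lies on the plus strand of chromosome 4 from 101717404 to 101815352, and Rgs5 on the plus strand of chromosome 1 from 169655501 to 169695813. Acta2 lies on the minus strand of chromosome 19 from 34241090 to 34255590. Tagln lies on the minus strand of chromosome 9 from 45929619 to 45936058, and 67.9% of its exon bases also belong to genes on the other strand, namely Pcsk7 and Gm48529. The methods name a stranded library kit. Whether the counting used strand, and how it treated reads that lie on more than 1 gene, is not given in the sources used here. Tagln values could therefore miss shared reads or hold reads of Pcsk7, a protein convertase, and neither was tested. Pcsk7 did not pass the test in any comparison, with differences of -0.19, 0.25 and -0.15 on the log2 scale (adjusted p = 0.451, 0.297 and 0.515 by limma, in the order mpEC and bmEC, Yap1/Taz, Lats2).

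RefSeq windows of 250 bases before to 50 bases after the start (GRCm38.p6) were at hand for 7 of the 10 genes, all but Pdgfrb, Tagln and Myh11, and were searched for 2 motifs named in work on contractile genes and on Yap1 and Taz. These are the CArG box, bound by serum response factor, and GGAATG, the core bound by TEAD factors, the DNA-binding partners of Yap1 and Taz. Both strands were searched, and no match overlapped another. A strict CArG box was in 1.629% of 32851 windows and in none of those of the 7 genes, a CArG box with at most 1 G or C in its centre was in 9.984% of windows, and GGAATG was in 14.663%. The Acta2 window held 2 boxes of the relaxed kind, which begin 84 and 34 bases before the start, and 1 GGAATG that begins 146 bases before it. The windows of Kcnj8, Rgs5, Lepr, Pdgfra, Cspg4 and Des held neither motif. The 250 upstream bases of the 3 genes below are printed because these 3 passed the test in the Lats2 comparison, 2 upward and 1 downward, with the motif matches in capitals. A match is a run of letters and not a site at which binding was measured.
Acta2 (chr19:34255374-34255623, minus strand): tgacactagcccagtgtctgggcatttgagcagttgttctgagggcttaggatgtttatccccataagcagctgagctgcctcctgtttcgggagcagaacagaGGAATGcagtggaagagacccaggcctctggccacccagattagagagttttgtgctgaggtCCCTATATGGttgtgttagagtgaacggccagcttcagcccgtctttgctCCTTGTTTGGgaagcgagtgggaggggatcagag
Kcnj8 (chr6:142571615-142571864, minus strand): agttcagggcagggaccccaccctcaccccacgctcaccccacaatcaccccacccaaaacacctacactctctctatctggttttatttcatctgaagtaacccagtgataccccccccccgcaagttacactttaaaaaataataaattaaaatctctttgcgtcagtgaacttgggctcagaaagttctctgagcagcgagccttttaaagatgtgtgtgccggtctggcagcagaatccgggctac
Rgs5 (chr1:169655251-169655500, plus strand): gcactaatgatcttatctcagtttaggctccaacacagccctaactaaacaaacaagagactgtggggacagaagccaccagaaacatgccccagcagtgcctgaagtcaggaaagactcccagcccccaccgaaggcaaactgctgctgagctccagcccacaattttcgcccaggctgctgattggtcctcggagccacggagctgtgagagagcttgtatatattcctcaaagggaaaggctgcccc

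The first comparison sets ECs of the marrow cavity against those of the metaphysis, the growing region of the long bone with columnar vessels. Of the 10 genes, 5 had a mean of at least 1 FPKM and were tested, namely Kcnj8, Lepr, Rgs5, Acta2 and Tagln. Kcnj8 and Lepr were higher in bmECs and no member was lower. That is 2 of 5 tested, where 23.5% of all 11422 genes tested passed in either direction and 13% passed as higher. The median difference of the 5 was -0.17 on the log2(FPKM + 1) scale, and that of all genes tested was -0.0007.

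Kcnj8 was at 131, 199 and 169 FPKM in mpECs and at 465, 458 and 440 FPKM in bmECs. All 3 bmEC libraries were above all 3 mpEC libraries, and the spread within bmECs was small. The means were 166 ± 33.8 and 454 ± 13.1 FPKM (SD, n = 3 each), a ratio of 2.73 and a difference of 1.46 ± 0.14 (log2, SE; adjusted p = 0.000315, limma). Among all genes of a library, Kcnj8 ranked between 287 and 515 in mpECs and between 114 and 125 in bmECs.

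Lepr, the leptin receptor, was at 2.74, 2.90 and 3.20 FPKM in mpECs and at 11.6, 14.8 and 13.5 FPKM in bmECs. The groups were again well apart, with means of 2.95 ± 0.231 and 13.3 ± 1.64 FPKM and a ratio of 4.52. The difference was 1.85 ± 0.12 on the log2 scale (adjusted p = 5.07e-05, limma). Both Kcnj8 and Lepr passed the test under all 14 alternative settings.

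Rgs5 was at 16.5, 22.7 and 15.5 FPKM in mpECs and at 1.10, 21.9 and 5.06 FPKM in bmECs. One bmEC library lay within the mpEC range and the other two lay under it. The difference of -1.52 ± 0.73 did not pass the test (adjusted p = 0.176, limma). Without bmEC replicate 2 it was -2.41 with an adjusted p of 0.00865.

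Acta2 repeated that pattern at a lower level, with 3.86, 2.64 and 2.83 FPKM in mpECs and 0.478, 2.91 and 0.954 FPKM in bmECs. Its difference of -0.86 ± 0.33 did not pass (adjusted p = 0.0996, limma) and was -1.26 without bmEC replicate 2 (adjusted p = 0.00647). Tagln was at 1.17, 1.26 and 2.27 FPKM in mpECs and at 0.919, 2.40 and 0.750 FPKM in bmECs, with a difference of -0.17 (adjusted p = 0.710). For Rgs5, Acta2 and Tagln bmEC replicate 2 was the highest of its group. Kcnj8 was at 465, 458 and 440 FPKM and Abcc9 at 167, 166 and 179 FPKM in bmEC replicates 1 to 3. The reason for this order of replicates was not tested.

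The remaining 5 genes were under the filter in this table. Des was listed at 0 in all 3 mpEC libraries and at 0.129, 0.141 and 0.0453 FPKM in bmECs, which is 4, 5 and 2 reads. Its groups did not overlap. Of the 5 genes tested, 2, Kcnj8 and Lepr, did not overlap between groups, where 41.3% of all genes tested did not. Pdgfra was at 0.134 to 0.372 FPKM in mpECs and at 0.303 to 0.559 FPKM in bmECs, and Pdgfrb, Cspg4 and Myh11 stayed at or under 0.174 FPKM with overlapping groups.

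**Figure D2:**
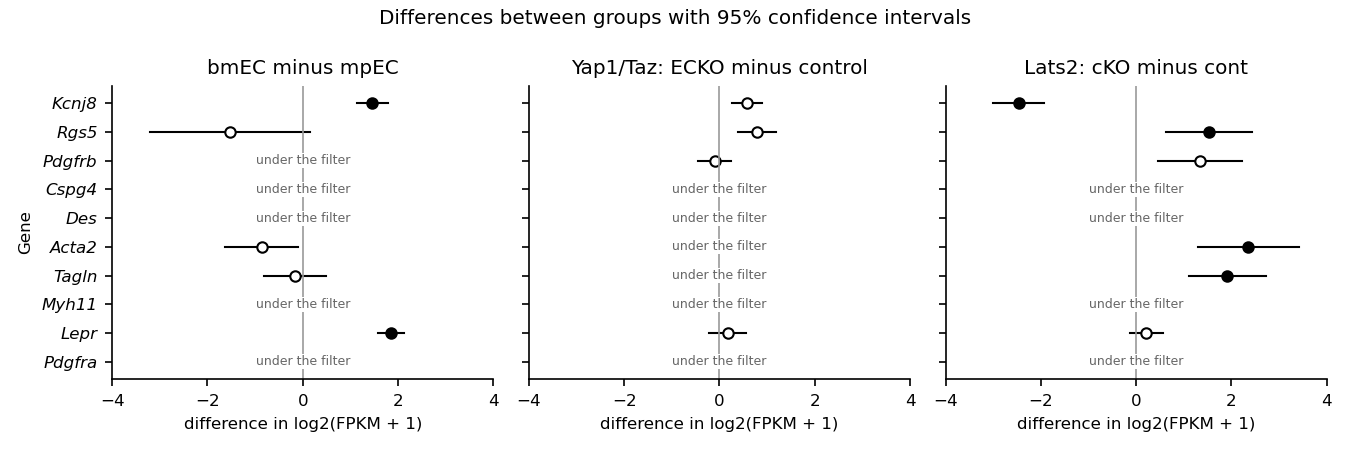
Differences between groups on the log2(FPKM + 1) scale for the 10 genes, with 95% confidence intervals from limma. Filled points passed at an adjusted p under 0.05, open points did not, and genes with a mean under 1 FPKM were not tested. Kcnj8 lies at 1.46, 0.57 and -2.47 in the 3 panels.

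Other pericyte genes did not follow one direction between mpECs and bmECs. Of 13 further pericyte genes 5 were tested, 2 were higher in bmECs and 2 were lower. Rgs4, a relative of Rgs5, rose most, from 111, 139 and 116 FPKM to 1166, 1079 and 790 FPKM (3.03 ± 0.16, adjusted p = 2.48e-05, limma). Abcc9 rose from 47.1, 66.3 and 54.4 FPKM to 167, 166 and 179 FPKM, a ratio of 3.05 (1.60 ± 0.12, adjusted p = 0.000113). Mcam, an adhesion molecule of mural cells and of ECs, fell from a mean of 52.9 to 18.4 FPKM (-1.48, adjusted p = 0.000825), and Ndufa4l2 fell from 2.39 to 0.686 FPKM (-1.0, adjusted p = 0.00973). Notch3, a receptor of mural cells, stayed at 0.0128 to 0.0503 FPKM and Vtn was listed at 0 in 5 of the 6 libraries.

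Of 12 further contractile genes 7 were tested, 2 were higher in bmECs and 3 were lower. Tpm1, a tropomyosin, rose from 45.0 to 93.5 FPKM (1.04, adjusted p = 8.67e-05, limma), and Ppp1r14a, an inhibitor of myosin phosphatase, from 1.04 to 3.56 FPKM (1.21, adjusted p = 0.0194). Cald1, which encodes caldesmon, fell from 69.9 to 28.3 FPKM (-1.27, adjusted p = 6.87e-05), and Smtn and Csrp1 fell as well, with differences of -0.65 and -0.59 (adjusted p = 0.0236 and 0.0162). Cnn1, Actg2 and Lmod1, which belong to the mature smooth muscle program, were at or under 0.659 FPKM in every library. No gene of the serum response factor list, made of Srf, its cofactors Mkl1 and Mkl2 and Myocd, passed, and 2 of the 4 were tested.

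Among 13 further stromal genes 8 were tested, 2 were higher in bmECs and 3 were lower. Those higher were the lipid genes Lpl, at 11.3 and 47.2 FPKM (1.99, adjusted p = 7.57e-05, limma), and Adipoq, at 6.41 and 19.3 FPKM (1.5, adjusted p = 0.00278). Those lower were Kitl, the ligand of the stem cell receptor Kit, at 32.1 and 10.6 FPKM (-1.61, adjusted p = 0.00961), Snai2 (-1.29, adjusted p = 0.00064) and Ebf1 (-0.64, adjusted p = 0.0455). Cxcl12 was at 24.7 and 22.7 FPKM and did not pass (adjusted p = 0.654). Lepr thus rose in a table in which Lpl and Adipoq rose and Kitl, Snai2 and Ebf1 fell.

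Ligands and receptors through which ECs and mural cells signal were mostly lower in bmECs where they differed, with 1 of 16 tested genes higher and 5 lower out of a list of 19. Edn1, the vasoconstrictor endothelin, fell from 8.16 to 1.01 FPKM (-2.23, adjusted p = 0.000502, limma) and Hbegf from 10.8 to 2.29 FPKM (-1.86, adjusted p = 0.000268). Tgfb2 and Pdgfa fell with differences of -1.07 and -0.97 (adjusted p = 0.02 and 0.00164), and Pdgfb from 10.3 to 7.19 FPKM (-0.47, adjusted p = 0.0409). Tek, the angiopoietin receptor of ECs, was the gene that was higher, at 162 and 227 FPKM (0.49, adjusted p = 0.0137).

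Markers of other cell types moved with this comparison. Bone-forming transcripts were lower in bmECs, with 4 of 6 tested osteoblast genes lower, such as Bglap at 185 and 2.27 FPKM and Col1a1 at 55.9 and 0.583 FPKM, and the sum of the 8 osteoblast genes ran from 230 to 785 FPKM in mpECs and from 43.8 to 58.2 FPKM in bmECs. All 3 tested chondrocyte genes of 6 were lower, and Col2a1 was at 7.65 FPKM in mpECs and listed at 0 in bmECs. Of the fibroblast genes 1 of 3 tested was lower, with sums of 20.1 to 69.3 and 8.15 to 16.1 FPKM over 12 genes, and 1 of 9 skeletal muscle genes was tested and did not pass. None of the 8 blood-cell genes passed, with sums of 23543 to 47131 and 32218 to 44482 FPKM. Immediate-early and heat shock genes, which respond to cell isolation, were listed together. Of these, Jun and Junb passed as higher among 8 tested, with sums of 613 to 952 and 775 to 2780 FPKM. Of 9 tested endothelial genes 4 were higher and 3 lower. The part of these differences in the results for Kcnj8, Lepr, Rgs5 and Acta2 was not tested.

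The second comparison asks how the transcripts change where Yap1 and Taz are targeted in ECs. Of the 10 genes 4 were tested, namely Kcnj8, Rgs5, Pdgfrb and Lepr, and limma called 0 of them, where 1.31% of 11320 genes tested were called. At an unadjusted p under 0.05 it passed 2 of the 4, where 17.9% of all genes tested did. Limma-voom on the estimated reads, which was added after the data were seen, called 1 of the 9 members it tested and 335 of 13871 genes. The median difference of the 4 was 0.37, and that of all genes tested was -0.005.

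Kcnj8 was at 54.3, 44.6 and 54.1 FPKM in controls and at 61.3, 86.9 and 82.3 FPKM in the libraries labelled ECKO. The groups did not overlap, and the ratio of means was 1.51. The difference was 0.57 ± 0.14 on the log2 scale (adjusted p = 0.0775, limma), and under the 14 alternatives the adjusted p ran from 0.0191 to 0.298.

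Rgs5 was at 0.787, 1.53 and 1.49 FPKM in controls and at 2.64, 2.93 and 3.06 FPKM in the libraries labelled ECKO. Again the groups did not overlap, with means of 1.27 ± 0.419 and 2.88 ± 0.216 FPKM and a difference of 0.79 ± 0.17 (adjusted p = 0.0642, limma). Kcnj8 and Rgs5 were the 2 of the 4 tested members without overlap, where 23.6% of all genes tested did not overlap.

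Pdgfrb was expressed in these libraries, at 4.92, 7.32 and 6.64 FPKM in controls and at 6.41, 5.96 and 4.92 FPKM in the libraries labelled ECKO. The groups overlapped, and the difference was -0.10 with a 95% confidence interval of -0.44 to 0.24. Lepr was at 2.33, 3.17 and 3.19 FPKM and at 4.31, 2.72 and 3.20 FPKM, with an interval of -0.21 to 0.55.

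The contractile members were under the filter here. Acta2 was at 0.828, 0.816 and 1.72 FPKM in controls and at 0.842, 0.672 and 0.494 FPKM in the libraries labelled ECKO. Tagln was at 0.531, 0.550 and 1.02 FPKM and at 1.08, 0.755 and 0.555 FPKM. Groups overlapped for both, and Cspg4, Des, Myh11 and Pdgfra stayed at or under 0.360 FPKM.

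Of the further pericyte genes 5 were tested and 1 was higher, namely Mcam, at 36.3, 34.6 and 35.0 FPKM in controls and at 46.9, 53.9 and 54.1 FPKM in the libraries labelled ECKO (0.53, adjusted p = 0.0387, limma). Abcc9 was at 55.6, 54.0 and 54.1 FPKM and at 65.1, 78.6 and 79.6 FPKM, without overlap (0.44, adjusted p = 0.0671), and Rgs4 had means of 35.0 and 73.8 FPKM (1.01, adjusted p = 0.0548). None of 7 tested contractile genes, 8 stromal genes, 5 fibroblast genes, 15 mural signaling genes and 3 genes of the serum response factor list passed the adjusted threshold. The most abundant contractile, stromal and mural signaling genes were Csrp1 at 120 and 131 FPKM, Igfbp5 at 9.43 and 13.01 FPKM and Tgfbr2 at 70.5 and 86.0 FPKM.

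Markers that moved with the label were Cldn5, a tight junction protein and 1 of 10 tested endothelial genes, which was higher at 84.4 and 180 FPKM (1.09, adjusted p = 0.0117, limma). The sum of the endothelial list ran from 531 to 573 FPKM in controls and from 684 to 797 FPKM in the libraries labelled ECKO, the same libraries in which Kcnj8, Abcc9 and Rgs5 had their higher values. Col1a1 and Bglap were lower among 5 tested osteoblast genes, with list sums of 32.0 to 44.2 and 11.1 to 24.3 FPKM, and the 1 tested gene each of the chondrocyte and skeletal muscle lists did not pass. Hspa1b, a heat shock gene, was higher among 9 immediate-early and heat shock genes, and none of the 8 blood-cell genes passed. Their part in the results was not tested.

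The third comparison concerns Lats2, the kinase that restrains Yap1 and Taz. Of the 10 genes 6 were tested, and Acta2, Tagln and Rgs5 were higher and Kcnj8 was lower in the libraries labelled cKO. That is 4 of 6, where 21.8% of all 12451 genes tested passed, 11.8% as higher and 9.98% as lower. The median difference of the 6 was 1.44, and that of all genes tested was -0.003. Pdgfrb, one of the 6, reached the filter only through the libraries labelled cKO, with means of 0.401 FPKM in controls and 2.66 FPKM in those. Its higher value is therefore tied to its being tested, and it counts in that median and among the higher genes below. None of the 6 tested genes overlapped between groups, with 5 higher and 1 lower, where with 2 libraries a group 68.2% of all genes tested did not overlap. Cspg4 and Des did not overlap either, but they were under the filter, so that share does not cover them, and their reads were few. Cspg4 had 0 and 7 reads in controls and 12 and 37 in the libraries labelled cKO. Des had 0 and 2 reads in controls and 6 and 8 in the libraries labelled cKO.

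Acta2 was at 0.339 and 2.17 FPKM in controls and at 9.22 and 9.93 FPKM in the libraries labelled cKO. Both libraries labelled cKO were above both controls, and the difference was 2.36 ± 0.42 on the log2 scale (adjusted p = 0.0208, limma). Tagln was at 5.32 and 9.12 FPKM and at 22.9 and 37.2 FPKM, a ratio of means of 4.16 (1.92 ± 0.32, adjusted p = 0.0184). Both contractile genes rose while Myh11 was at 0.212 and 0.203 FPKM in controls and at 0.360 and 0.151 FPKM in the libraries labelled cKO, which is 6 to 10 reads a library.

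Rgs5 was at 1.41 and 1.33 FPKM in controls and at 3.79 and 8.79 FPKM in the libraries labelled cKO. The cKO libraries differed from each other more than the controls did, and the difference was 1.53 ± 0.36 (adjusted p = 0.0389, limma). Pdgfrb was at 0.587 and 0.215 FPKM and at 1.69 and 3.63 FPKM. It lay just outside the threshold (1.35 ± 0.35, adjusted p = 0.0501), and inside it by limma-voom on the estimated reads (adjusted p = 0.0174).

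Kcnj8 went the other way. It was at 359 and 398 FPKM in controls and at 82.6 and 55.4 FPKM in the libraries labelled cKO, so that the cKO mean was 0.182 of the control mean. The difference was -2.47 ± 0.21 (adjusted p = 0.0076, limma), and it was the only one of the 10 genes that also passed the study's own limits of an adjusted p under 0.01 and an absolute log2 difference over 0.5. Its rank among all genes was 86 and 100 in controls and 768 and 1293 in the libraries labelled cKO.

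Lepr was at 6.84 and 6.39 FPKM in controls and at 7.52 and 8.12 FPKM in the libraries labelled cKO, and its difference of 0.21 had a 95% confidence interval of -0.14 to 0.56. Cspg4 and Des were under the filter. Cspg4 was at 0 and 0.104 FPKM and at 0.263 and 0.624 FPKM, and Des at 0 and 0.0896 FPKM and at 0.423 and 0.428 FPKM. Pdgfra was at 0.268 and 0.0998 FPKM and at 0.0787 and 0.149 FPKM.

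These calls rest on 2 libraries a group. Without either control library limma called no gene at all at the adjusted threshold. Without cKO replicate 2 it called Kcnj8 alone of the 10, and without cKO replicate 1 the difference of Acta2 was 2.41 with an adjusted p of 0.0778. The differences of the members tested kept their sign in all of these fits, whose calls over all genes ran from 0 to 2701 against 2711 with all libraries.

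Of 12 contractile genes outside the 10, 7 were tested, and 4 passed as higher and none as lower, with a median of 1.31. Myl9, a myosin light chain, rose from 4.84 and 8.25 FPKM to 26.9 and 35.6 FPKM (2.12, adjusted p = 0.0115, limma), Csrp1 from a mean of 108 to 376 FPKM (1.77, adjusted p = 0.0104), Tpm1 from 36.2 to 123 FPKM (1.70, adjusted p = 0.0116) and Cald1 from 27.5 to 61.7 FPKM (1.13, adjusted p = 0.0119). The 3 that did not pass had differences of 1.31 for Ppp1r14a, 0.16 for Smtn and -0.60 for Mylk, the kinase of the myosin light chain (adjusted p = 0.0663, 0.414 and 0.0665). Cnn1, Lmod1 and Actg2 were at 0 in both libraries labelled cKO. Srf rose from 4.52 and 5.17 FPKM to 7.90 and 7.85 FPKM (0.60, adjusted p = 0.0403), 1 of 3 tested genes of its list.

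**Figure D3:**
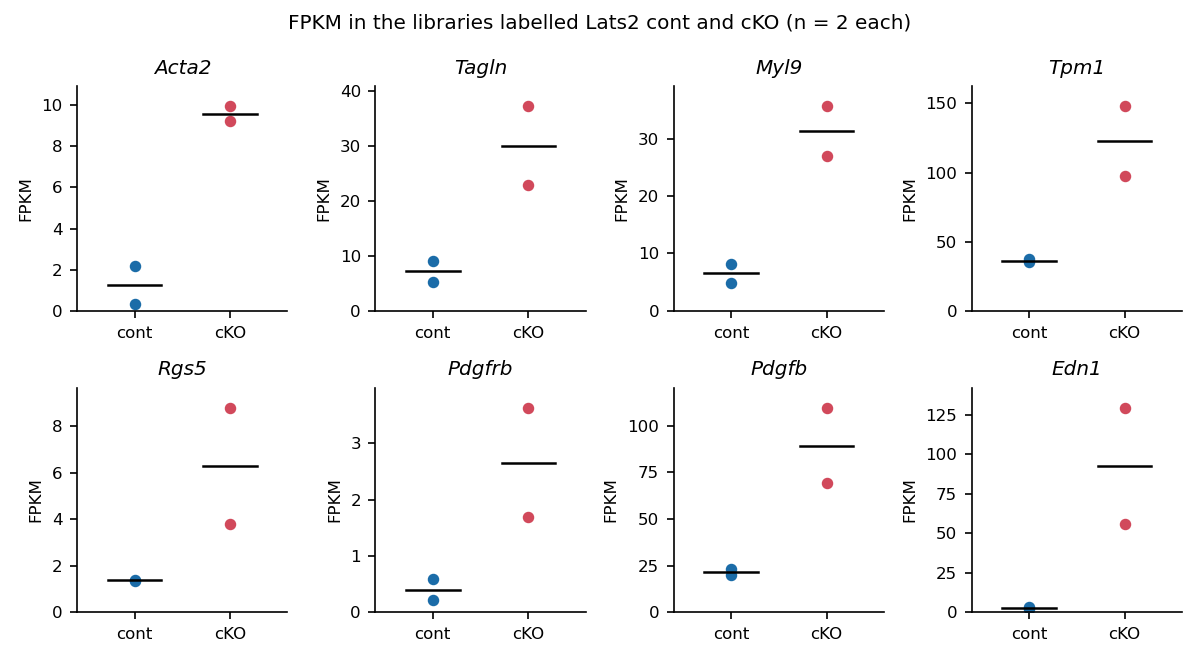
FPKM in the 2 control libraries and the 2 libraries labelled cKO of the Lats2 comparison, with 1 point a library and a bar at the mean. All axes start at 0. Acta2, Tagln, Myl9, Tpm1, Rgs5, Pdgfb and Edn1 passed the test as higher, and Pdgfrb, at 0.215 to 0.587 and 1.69 to 3.63 FPKM, did not.

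Of the genes through which ECs and mural cells signal, 16 were tested, 8 were higher and 1, Tek, was lower (-1.35, adjusted p = 0.0217, limma). The other 7 did not pass, among them the receptor Tgfbr2 at 117 and 73.5 FPKM (-0.68, adjusted p = 0.0552) and the Notch ligand Jag1 at 10.9 and 7.28 FPKM (-0.59, adjusted p = 0.204). Angpt2, a ligand of Tek, rose from 8.06 and 8.15 FPKM to 172 and 478 FPKM (4.98, adjusted p = 0.00817), Edn1 from 1.89 and 3.66 FPKM to 56.0 and 129 FPKM (4.55, adjusted p = 0.009), and Tgfb2 from 0.553 and 1.14 FPKM to 9.42 and 18.5 FPKM (2.97, adjusted p = 0.0105). Pdgfb, the ligand of Pdgfrb, rose from 19.8 and 23.2 FPKM to 69.2 and 110 FPKM (1.97, adjusted p = 0.0109).

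Of the further pericyte genes 4 were tested, with 1 higher and 2 lower. Mcam rose from 93.6 to 213 FPKM (1.18, adjusted p = 0.0106, limma), whereas Rgs4 fell from 139 to 17.1 FPKM (-2.96, adjusted p = 0.00574) and Abcc9 from 97.8 and 145 FPKM to 23.9 and 16.2 FPKM (-2.54, adjusted p = 0.00913). Notch3 was at 0.125 and 0.104 FPKM and at 0.296 and 0.899 FPKM. Of 9 tested stromal genes Kitl and Cxcl12 were higher (1.14 and 0.64, adjusted p = 0.022 and 0.04999) and Igfbp5 and Lpl lower (-2.02 and -0.93, adjusted p = 0.00987 and 0.0408).

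Other cell types also moved with this comparison. The sum of the 8 blood-cell genes ran from 2381 to 3427 FPKM in controls and from 421 to 1369 FPKM in the libraries labelled cKO, with 3 of 8 lower, and Cd79a fell from 37.0 to 9.11 FPKM. Of 3 tested fibroblast genes Col3a1 was higher, at 1.59 and 7.98 FPKM, with list sums of 4.28 to 8.14 and 8.48 to 16.7 FPKM, and of 5 tested osteoblast genes Spp1 was higher, at 5.20 and 39.9 FPKM. The 1 tested gene each of the chondrocyte and skeletal muscle lists did not pass. Of 9 immediate-early and heat shock genes Atf3 was higher, and the heat shock genes Hspa1a and Hspa1b were lower. Of 10 endothelial genes 2 were higher and 2 lower, with sums of 2517 to 2699 and 2101 to 2394 FPKM. The part of these differences in the results for Acta2, Tagln, Rgs5 and Kcnj8 was not tested.

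Kcnj8, Lepr and Rgs5 had means of at least 1 FPKM in all 3 tables, and the genes most like them were sought over the 16 libraries, with log2(FPKM + 1) centred within each table. The correlations are descriptions over libraries that share groups, depth and tables. Of 9070 genes, Abcc9 was most like Kcnj8 (r = 0.99), followed by Fcgrt, the neonatal Fc receptor (r = 0.99), and Thbd, the endothelial thrombin receptor thrombomodulin (r = 0.99). Thbd differed by 1.30 in bmECs, 0.35 in the libraries labelled ECKO and -1.94 in those labelled cKO, against 1.46, 0.57 and -2.47 for Kcnj8. Most like Lepr were Fabp4, a fatty acid carrier of capillary ECs (r = 0.95), the transporter Slco2b1 (r = 0.95) and Agmo (r = 0.94). Their log2 differences in bmECs were 1.65, 2.00 and 1.82, which describes the choice, since these genes were picked for their likeness over the same libraries.

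Most like Rgs5 were Lims2 (r = 0.90), Sparcl1 (r = 0.89) and Ly6a (r = 0.86). Picked in the same way, they had log2 differences of -1.55, -1.81 and -0.75 in bmECs and of 0.94, 1.98 and 0.33 in the libraries labelled cKO. Among the 3 members themselves, Kcnj8 correlated with Lepr at r = 0.46 and with Rgs5 at r = -0.56, and Lepr with Rgs5 at r = -0.35.

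**Figure D4:**
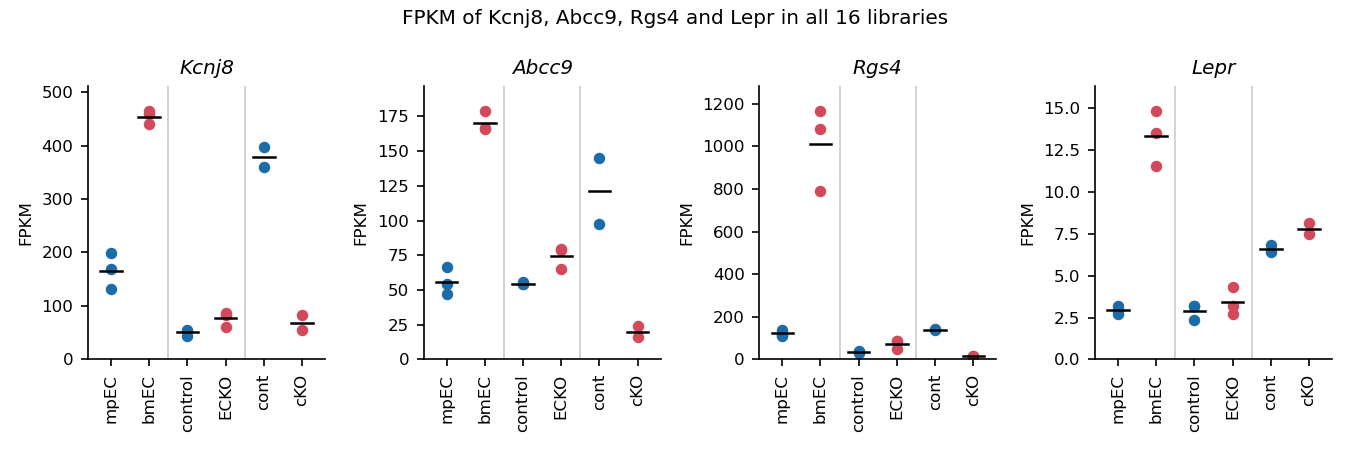
FPKM of Kcnj8, Abcc9, Rgs4 and Lepr in each of the 16 libraries, with 1 point a library, a bar at the group mean and grey lines between tables that were normalized separately. Kcnj8 and Abcc9 are higher in bmECs than in mpECs and lower in the libraries labelled cKO than in their controls, and Lepr lies at 6.39 to 8.12 FPKM in the Lats2 table.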

How the data were processed

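Bulk RNA-seq of 16 libraries of sorted bone ECs was analyzed. Before deposition, TopHat placed paired-end MiSeq reads on GRCm38, HTSeq 0.6.1 made gene counts, and these became FPKM. The authors deposited FPKM values for each library. The FPKM step, the annotation and the strand setting are not given in the sources used here. The counts that the study tested with DESeq2 were not used here.

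Log2(FPKM + 1) was compared with limma 3.58.1 (R 4.3.3), moderated along a mean-variance trend, over all genes averaging at least 1 FPKM in the libraries compared. Two-sided p-values were corrected across those genes (Benjamini-Hochberg), and a gene passed at an adjusted p under 0.05. Differences on this scale understate the change of low genes. Each table was tested on its own, and every column had a sample. Of 21603 Ensembl identifiers, 21375 matched a symbol. Gene names that occur more than once in the Lats2 libraries, 2 in all, were left out.

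Reads were estimated from FPKM, gene length (GENCODE M21) and the size of the smallest step. In each library 62.3% to 70.0% of values of at most 20 reads lay within 0.02 of a whole read, where chance gives 4%. These reads served for depth and for limma-voom, added after the data were seen. No replicates were alike within counting noise. The procedure was also run on simulated data, whose outcome is not given here. The genes given a known change there were well covered and the spread between libraries was set, so that run does not cover the low members.

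The 10 members and the marker lists were chosen with earlier results of these data known. The plan was to name all members, the targeted genes and up to 4 passing genes of each list with the largest difference or else the most abundant. It also covered the 3 genes most correlated with each member that averaged at least 1 FPKM in every table. The text does not keep to it for every list. Passing genes of the endothelial, osteoblast, chondrocyte, fibroblast and blood-cell lists are in part given only as counts. Pcsk7, Notch3, Vtn, Mylk, Jag1, Cnn1, Actg2, Lmod1 and others outside that rule were named after their values were seen. Alternatives were another pseudocount (0.1), no filter, a filter at 5 FPKM, quantile and median-of-ratios scaling, no trend, a replicate block, leaving out each library, and the study's limits. Tables and plots were made in Python 3.11.15 (pandas 2.3.3, matplotlib 3.10.9, numpy 2.4.6).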

Additional observations from a re-analysis of the deposited data

How the results depend on the processing

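Between mpECs and bmECs 2 members passed, and leaving out each library gave 2 to 4. Limma-voom on estimated reads gave 4, adding Acta2 (-1.61, adjusted p = 0.0365) and Des (adjusted p = 0.0415). Des had 0 reads in mpECs and 4, 5 and 2 reads in bmECs. More members were tested in some settings, with all 10 under no filter on low values and 10, 9 and 10 by limma-voom in the 3 comparisons. Over all genes limma-voom passed 3615 of 15453 here and 3488 of 14045 in the Lats2 comparison. In the Yap1/Taz comparison 0 passed, against 1 under quantile normalization (Rgs5, adjusted p = 0.0489), 1 by limma-voom (Kcnj8, adjusted p = 0.0388) and 0 to 1 when each library was left out (Kcnj8 without ECKO replicate 1, adjusted p = 0.0191). In the Lats2 comparison 4 passed, against 2 with no filter on low values, 3 with a filter at 5 FPKM, 1 under the study's limits, 5 under quantile normalization and by limma-voom, which both added Pdgfrb, and 0 to 4 when each library was left out. With no mean-variance trend 4 passed, but Pdgfrb (adjusted p = 0.0493) stood in place of Rgs5 (adjusted p = 0.0508), and without cKO replicate 1 Pdgfrb (adjusted p = 0.0361) stood in place of Acta2. The cause of these shifts was not tested. Over all genes, 148 passed in the Yap1/Taz comparison, against 1 with no filter, 17 with no trend, 335 by limma-voom and 1 to 293 when each library was left out, and 2711 passed in the Lats2 comparison, against 1389 with no filter and 0 to 2701 when each library was left out. Limma-voom moved the median difference of all genes to -0.22 in the first and to -0.15 in the Lats2 comparison, and the share of passing genes that were higher from 55.2% to 26.9% and from 54.1% to 37.7%. Relative to these medians, Kcnj8, Lepr, Acta2, Tagln and Rgs5 kept their direction in both. The differences that changed sign were those of Tagln in bmECs and of Pdgfrb in the Yap1/Taz libraries. That of Tagln ran from -0.499 (limma-voom) to 0.022 (without mpEC replicate 3). It was -0.46 without bmEC replicate 2 and 0.017 without bmEC replicate 3. That of Pdgfrb ran from -0.24 (without control replicate 1) to 0.0019 (without control replicate 2).

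The labels do not say that replicate numbers pair libraries, and they were not taken to do so. The correlation of deviations between same-numbered libraries was 0.307, 0.088 and 0.102 for mpECs and bmECs, all positive but not all over 0.1, with mpEC replicate 2 closest to bmEC replicate 3, and it was -0.175 to -0.123 for Yap1/Taz and 0.065 for Lats2. With a replicate block 2, 0 and 4 members passed, as without it, and over all genes 3072, 45 and 2655 passed, against 2682, 148 and 2711. The adjusted p of Rgs5 in bmECs was 0.0583 with the block and 0.176 without it.

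Depth limits the low members. Pdgfrb, Pdgfra, Cspg4, Myh11 and Des had at most 46 reads in any mpEC or bmEC library, so a small difference in them was not detectable at this depth.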
